A study of Mus musculus with 21 samples.

Results

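The markers described here are genes of the nonepithelial tissue that lies under and around taste buds: fibroblasts and matrix, vessels, Schwann cells and nerve, muscle, fat and blood. They were chosen by name, as 33 gene symbols, and each was looked up among the exons of the authors' merged annotation. A locus, the stretch of genome over which the authors summed fragments, was found for 31 of the 33 symbols, out of 43193 symbols placed at a locus in all. Acta1 and Adipoq-as had no locus under those names and were not analysed here. Of the 31 loci, 21 held 1 gene symbol and 10 held several, and the level of such a shared locus cannot be assigned to the marker alone.

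The RNA came from circumvallate papillae, the trench-shaped taste papillae at the back of the tongue, dissected from wild-type C57BL/6J mice aged 20 to 24 weeks. GEO's labels name 21 libraries in 3 groups of 7, Hungry, Satiated and Ad lib, where the last group fed freely, and give no other treatment or allele. No source used here says whether libraries came from single or pooled animals. The deposited table gives a mean and a variance per locus, and its values were identical for all 3 conditions at 32052 loci, with 0 loci differing. Every level below therefore pools the 21 libraries, and no comparison of hungry with fed mice could be made. The mean library held 21881979 compatible fragments, those that match an annotated transcript, and 23769781 total fragments. In bulk RNA, fewer cells of a type and less RNA per cell cannot be told apart.

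Taste buds are epithelial organs, and the connective tissue beneath them carries vessels, nerve fibres with their Schwann cells and strands of tongue muscle. Fibroblasts secrete collagens and proteoglycans, endothelial cells line vessels, and Schwann cells wrap the axons that contact taste cells. Marker genes of such cells are used to ask how much of this tissue a dissected epithelial sample still holds.

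Levels are the authors' mean of scaled fragments per library, and they are not divided by transcript length unless a sentence says per kb of exon. The CV, the standard deviation over the mean, was taken from the authors' variance, which pools the spread within sets of libraries. From the same variance follows a lower bound on the share of a locus's scaled fragments held by its leading library, called the leading share. This bound cannot exceed 87.5%, the value it takes when 1 library of a set of 8 holds every fragment. The true share is larger, and adding 1/21 gives a tighter bound. At a mean of at least 10 compatible fragments, called detected here, were 15 of the 31 markers, or 48.4%, against 67.6% of 20652 protein-coding symbols. Over all 32052 loci, genes of every kind included, the share was 42%. At a mean of at least 1 fragment there were 23 markers, against 75.5% of protein-coding symbols, and by total fragments 20 reached a mean of 10, against 72.5%. At a mean of at least 50 compatible fragments there were 9 markers, or 29.0%, against 60.2% of protein-coding symbols. The 31 loci summed to 0.0311% of all compatible fragments, and the 21 loci of 1 symbol to 0.0134%.

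**Figure D1:**
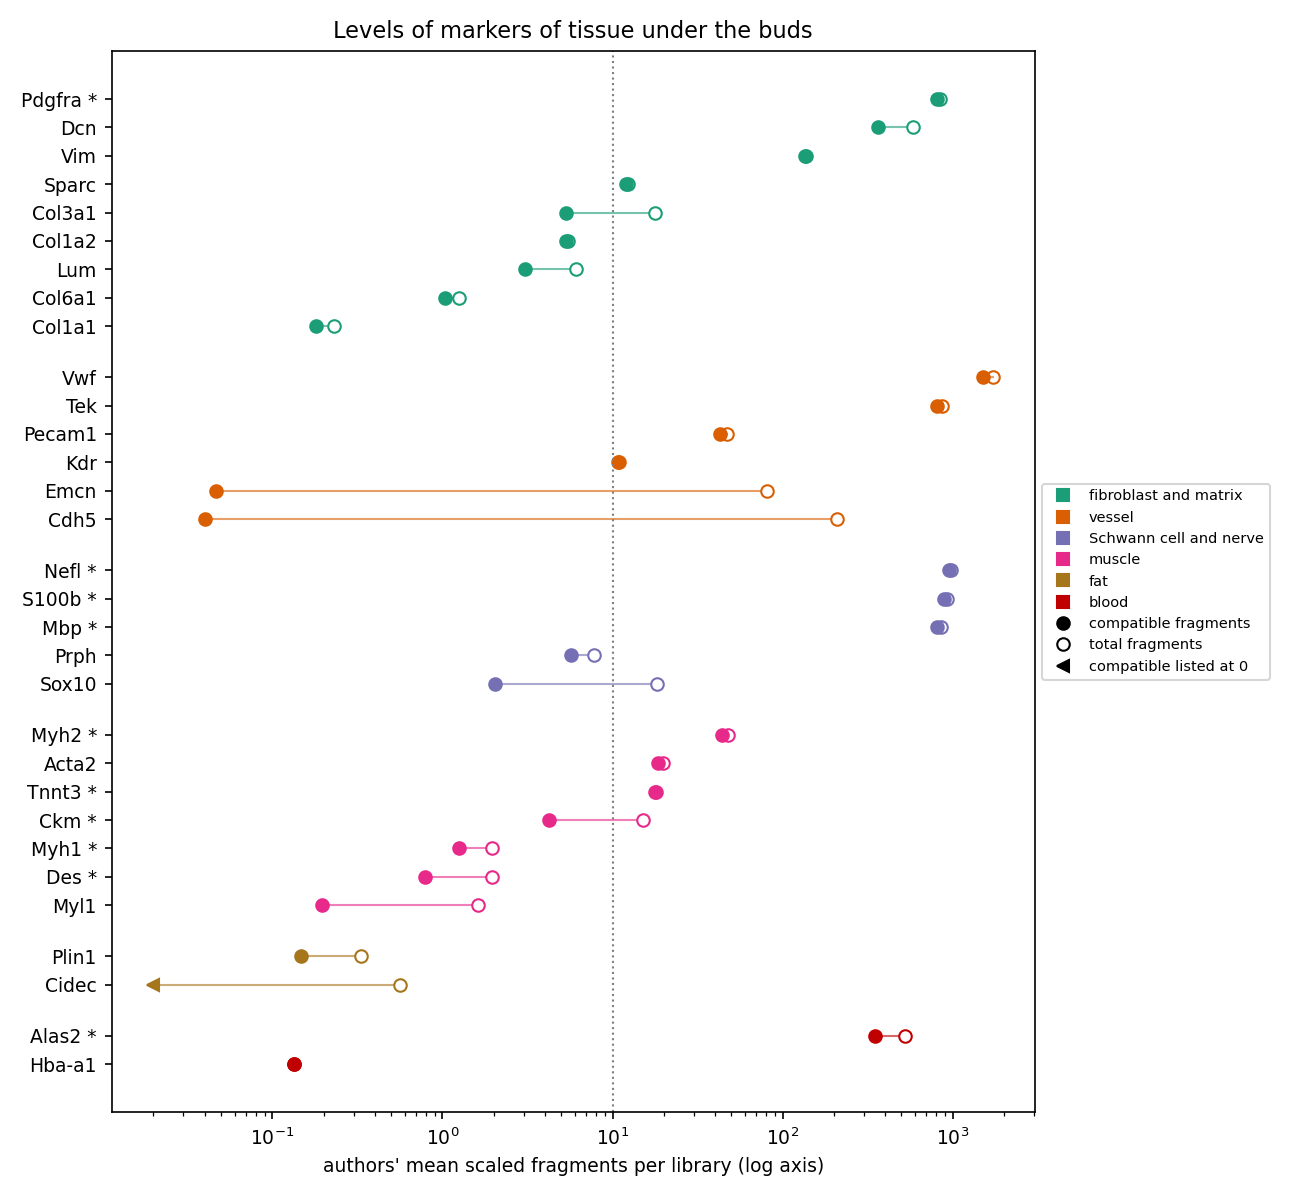
Authors' mean scaled fragments per library (log axis) of the 31 markers by tissue; filled points are compatible and open points total fragments, the dotted line marks 10 fragments, an asterisk marks a locus of several gene symbols, and the triangle a value listed at 0. Vwf is highest with 1508 compatible fragments, and among markers above 0 Cdh5 and Emcn have the highest ratio of total to compatible fragments.

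Among fibroblast and matrix markers, the 4 collagen genes lay under the detection level of 10 compatible fragments, while Dcn, Vim and Sparc were detected at loci of 1 symbol and Pdgfra at a shared one. Of 9 markers 4 were detected, with a median of 5.32 compatible fragments. Pdgfra, a receptor for platelet-derived growth factor that marks fibroblasts, had 814 compatible fragments and a CV of 0.215, and its locus includes Mir7025 (chromosome 5, 75152291 to 75198204, GRCm38, plus strand). Dcn encodes decorin, a small proteoglycan that binds collagen fibrils. Its level was 364 compatible and 588 total fragments, and its CV 0.418 (chromosome 10, 97479500 to 97518162, plus strand).

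Vim, the intermediate filament gene of mesenchymal cells, had 135 compatible fragments, and its CV of 0.956 was far above that of Dcn and Pdgfra. Sparc, a matrix glycoprotein gene, had 12.0 fragments with a CV of 1.16. Col1a2 and Col3a1, chains of the fibrillar collagens I and III, had 5.31 and 5.32 compatible fragments. Their CVs were 2.40 and 2.37, above the upper quartile of 1.87 for loci between 1 and 10 fragments.

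For both, the leading library held at least 27.4% and 26.8% of the scaled fragments. Lum, the gene of the proteoglycan lumican, lies on chromosome 10 beside Dcn and had 3.07 fragments with a leading share of at least 31.0%. Col6a1, a chain of the beaded-filament collagen VI, had 1.04 fragments with a leading share of at least 46.3%. Thus 5 of the 9 markers lay under the detection level, and Col1a1, the partner chain of Col1a2, was the lowest with 0.180 fragments. Which library led could not be read from these values, so whether the collagens shared a leading library was not tested.

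Col3a1 is listed with 17.7 total fragments, so 30.1% of them were compatible, whereas 97.3% were at Col1a2. Among the 17 other fibroblast genes listed, 6 were detected and the median was 4.90 compatible fragments, close to that of the markers. Mmp2, a matrix metalloproteinase gene, led those at loci of 1 symbol with 529.8 fragments and a CV of 0.540. Lox, which encodes the collagen crosslinking enzyme lysyl oxidase, followed with 32.3 compatible and 151 total fragments. Bgn, the gene of the proteoglycan biglycan, had 7.90 fragments, and Pdgfrb, a receptor of pericytes and fibroblasts, was the lowest with 0.0541.

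Vessel markers, all 6 at loci of 1 symbol, ran from the highest level of any marker to 1 compatible fragment in all libraries. By compatible fragments 4 of the 6 were detected, and by total fragments all 6. Vwf encodes von Willebrand factor, the clotting glycoprotein that endothelial cells store. It was the highest of the 31 markers at 1508 compatible fragments, and its CV was 0.163 (chromosome 6, 125546774 to 125686679, plus strand). Tek, the angiopoietin receptor also called Tie2, reached 811 fragments, and its CV was 0.194 (chromosome 4, 94739289 to 94874976, plus strand). Pecam1, an adhesion molecule of endothelial junctions and leukocytes, had 42.6 fragments with a CV of 0.575.

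Kdr, a receptor for vascular endothelial growth factor, averaged 10.7 fragments, and its CV was 4.04 (chromosome 5, 75932827 to 75978458, minus strand). At least 77.8% of its scaled fragments came from 1 library, so the other libraries together held less than the leading one. Among 13467 detected loci, 8 had a leading share above 50%, or 0.0594%, and Kdr was 1 of them. It was also 1 of 4 markers with a CV over 1 among the 15 detected, beside Sparc, Acta2 and Tnnt3. Over all detected loci, most of them at higher levels, 4.32% had such a CV. These 4 markers lay between 10 and 100 fragments, where the upper quartile of the CV over 3148 loci was 0.893.

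Cdh5 and Emcn, which encode the endothelial cadherin and the mucin endomucin, had 0.0403 and 0.0464 compatible fragments. Both loci nevertheless carried fragments that matched no annotated transcript, with totals of 209 at Cdh5 and 81.4 at Emcn. At Cdh5 0.0193% of total fragments were compatible, and at Emcn 0.0570%. Of the 20 markers with at least 10 total fragments, these 2 had under 10% compatible, against 13.2% of such loci over the whole table. The total fragments of Cdh5 were spread over libraries, with a CV of 0.333, and those of Emcn had a CV of 0.949. GENCODE M21 places an antisense gene, Gm29682, across the Cdh5 locus (chromosome 8, 104101625 to 104144502), which is not among that locus's merged symbols. The part of Gm29682 in the Cdh5 total was not tested. At the Emcn locus GENCODE M21 places 0 other genes.

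Promoters of 3 vessel markers are shown because these genes differ so widely in compatible fragments although all serve endothelial cells. By total fragments Emcn, with 81.4, lay above Kdr, with 10.9. Whether the motif bears on level was not tested. Each sequence comes from RefSeq on GRCm38.p6 and runs from 250 bases before to 50 after the start of the gene, on the coding strand. Capitals mark AGGAAG or its reverse complement CTTCCT, searched on both strands. This motif holds the GGAA core bound by ETS factors. GGAA cores outside the motif were not marked, so an unmarked window can still hold that core. Tek is at chr4:94739039-94739338 on the plus strand, Kdr at chr5:75978406-75978705 on the minus strand and Emcn at chr3:137340828-137341127 on the plus strand.
Tek: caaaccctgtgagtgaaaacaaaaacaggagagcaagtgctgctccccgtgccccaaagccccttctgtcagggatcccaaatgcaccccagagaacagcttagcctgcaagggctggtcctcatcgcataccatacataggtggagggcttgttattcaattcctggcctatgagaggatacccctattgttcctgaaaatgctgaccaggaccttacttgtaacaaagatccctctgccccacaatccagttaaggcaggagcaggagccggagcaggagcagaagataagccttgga
Kdr: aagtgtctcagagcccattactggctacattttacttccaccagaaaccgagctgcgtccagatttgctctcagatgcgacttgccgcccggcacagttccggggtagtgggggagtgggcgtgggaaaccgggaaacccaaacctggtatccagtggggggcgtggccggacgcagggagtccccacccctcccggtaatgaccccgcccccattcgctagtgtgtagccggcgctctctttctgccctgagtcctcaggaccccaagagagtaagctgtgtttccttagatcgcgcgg
Emcn: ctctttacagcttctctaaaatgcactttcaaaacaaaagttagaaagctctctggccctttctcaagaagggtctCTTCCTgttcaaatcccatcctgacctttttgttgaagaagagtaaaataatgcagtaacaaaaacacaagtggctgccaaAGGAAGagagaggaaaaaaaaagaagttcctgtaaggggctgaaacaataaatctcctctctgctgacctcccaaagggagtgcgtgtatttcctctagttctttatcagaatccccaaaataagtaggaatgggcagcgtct

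The motif was found 2 times in the Emcn window and 0 times in those of Tek and Kdr, and 35.4% of 32851 promoter windows of that length hold it. The authors' merged annotation adds 1 new Tek isoform of 22 exons. That isoform begins at base 94739289, which is 0 bases from the RefSeq start shown above. Kdr and Emcn have 0 new isoforms, and Vwf has 2.

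Of 13 other vessel genes listed, 5 were detected, 4 of them at loci shared with other genes. Esam, an endothelial adhesion gene, led the loci of 1 symbol with 19.7 fragments, followed by Cspg4, a pericyte proteoglycan gene, with 2.79 and Myh11, the smooth muscle myosin gene, with 1.59. Robo4 and Rgs5, genes of endothelial cells and pericytes, were listed at 0 compatible fragments, with 0.0967 and 0.339 in total. With 0 compatible fragments in 21 libraries, a compatible mean of up to 0.143 is allowed at a size factor of 1. That limit covers counting error only.

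In Schwann cell and nerve markers levels differed between shared loci and those of 1 symbol. The 3 detected of 5 markers all lie at loci with other genes, and the median was 814 compatible fragments. Nefl, the light neurofilament subunit, had 957 fragments and a CV of 0.215, in a locus that includes Nefm, the medium subunit (chromosome 14, 68082590 to 68124846). S100b, a calcium-binding protein of glia, had 885 fragments and a CV of 0.184, and its locus includes Dip2a and 2 other symbols.

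Mbp encodes myelin basic protein of the myelin sheath. It had 814 fragments with a CV of 0.174, and its locus also holds the pseudogene Rpl21-ps8. The merged annotation gives Mbp 17 annotated and 6 new isoforms, and the table gives no level per isoform. Prph, an intermediate filament of peripheral neurons, had 5.70 fragments with a CV of 1.85. Sox10, the transcription factor that specifies Schwann cells, had 2.05 compatible and 18.2 total fragments. At the 2 loci of 1 symbol, Prph and Sox10, the median was thus 3.87 fragments.

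Among the 15 other Schwann and nerve genes, 11 were detected. Pmp22, a myelin gene that other cells also use, had 539.5 fragments with a CV of 0.223. P2rx2, an ATP receptor of taste nerves, had 164 fragments, and Nefh, the heavy neurofilament subunit, had 125. Foxd3, a neural crest transcription factor, was listed at 0 compatible fragments, with 0.344 in total.

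Muscle markers were low, and their evenness over libraries differed. Of the 8 symbols 7 had a locus, 3 were detected and 0 reached 50 fragments. Myh2, a fast oxidative myosin heavy chain, was the highest at 44.1 fragments and a CV of 0.727, and its locus includes the antisense gene 9430073C21Rik. Acta2, smooth muscle actin, averaged 18.4 fragments, and its CV was 1.65 (chromosome 19, 34241090 to 34255336, minus strand). Tnnt3, the troponin T of fast muscle, had 17.9 fragments and a CV of 1.58, and its locus includes Lsp1, a leukocyte gene, and Prr33.

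The leading library held at least 12.9% of Acta2 and 11.9% of Tnnt3 fragments, and at least 2.52% at Myh2. Ckm, the creatine kinase of muscle, had 4.24 compatible and 15.1 total fragments and a CV of 0.841, below the lower quartile of 0.951 for loci between 1 and 10 fragments. Myh1, another fast myosin, had 1.26 fragments and a CV of 1.13, below that range's median of 1.29. Des, the muscle intermediate filament desmin, had 0.791 fragments and Myl1, a myosin light chain, had 0.195. The loci of Ckm, Myh1 and Des each hold 1 other symbol, so their values are not those of the markers alone. Actins and fast myosins are near-identical families whose fragments can be split between copies, so the values of Acta2, Myh1 and Myh2 are uncertain.

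Of the 22 other muscle genes, 9 were detected and 4 of those lay at loci of 1 symbol. Tpm2, a tropomyosin made in many cell types, had 372 fragments with a CV of 0.826. Eno3, muscle enolase, had 127 and Mylpf, a fast muscle light chain, had 35.0 with a CV of 0.413. Pvalb, the parvalbumin of fast fibres, was the lowest with 0.0472 fragments.

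Fat markers were at the floor. Plin1, the coat protein of adipocyte lipid droplets, had 0.147 compatible fragments. Cidec, which enlarges such droplets, was listed at 0 compatible fragments and had 0.561 in total. Among the 9 other fat genes 4 were detected, led at loci of 1 symbol by Lpl, lipoprotein lipase, with 264 fragments. Pparg, the nuclear receptor of adipocytes, had 91.3 with a CV of 0.431, and Lep, the leptin gene, had 10.6 with a CV of 1.01. Cfd, an adipocyte-secreted protease gene, was listed at 0 in both columns.

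Of the 2 blood markers 1 was at the floor and 1 was detected at a shared locus. Hba-a1, an alpha globin of red cells, had 0.135 fragments. Alas2, the first enzyme of haem synthesis in red cell precursors, had 350.4 fragments and a CV of 0.165, in a locus of 4 symbols that include Apex2 and Pfkfb1. The other blood genes were low, with 0 of 8 detected and 6 of the 8 at a locus. Hba-a2, the other alpha globin copy, had 0.148 fragments. Slc4a1, the red cell anion exchanger, was listed at 0 compatible fragments against 21.2 in total. Fragments of Hba-a1 and Hba-a2 can be exchanged, since the genes are near-identical copies.

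**Figure D2:**
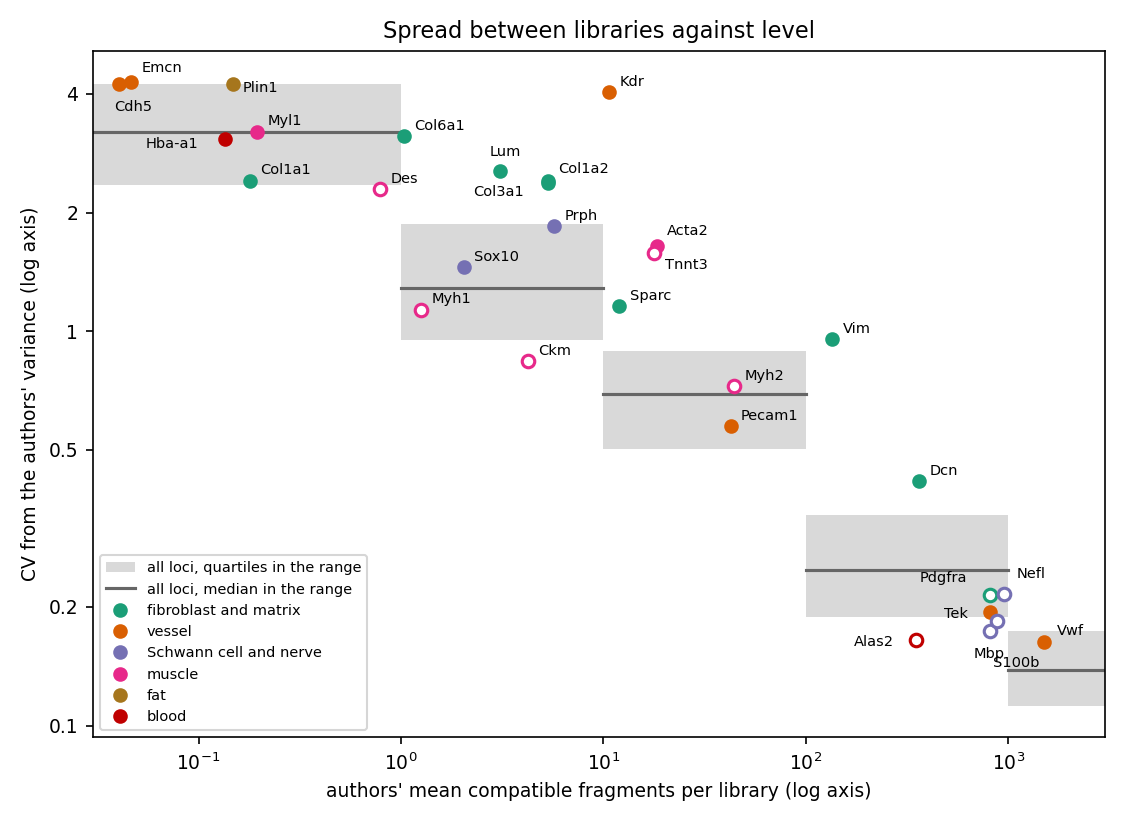
CV from the authors' variance against mean compatible fragments per library (both axes log) for the 30 markers above 0; open points are loci of several symbols, and grey bars and lines give quartiles and median of all loci in each range of level. Kdr stands far above the loci of its range with a CV of 4.04, while Tek, Mbp, S100b, Nefl and Pdgfra lie at CVs of 0.174 to 0.215.

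Spread between libraries differed among markers of like level, as the plot of CV against level shows. Between 10 and 100 compatible fragments, the 6 markers had a median CV of 1.37, against 0.694 for 3148 loci, and 4 of the 6 lay above the upper quartile of 0.893. Between 1 and 10 fragments, the 8 markers had a median CV of 2.11, against 1.29 for 2780 loci, and 4 lay above the upper quartile. The 8 markers between 100 and 1000 fragments had a median CV of 0.204, against 0.249 for 5623 loci. Of these 8, only Vim and Dcn lay above the upper quartile of 0.343, while Mbp, S100b and Alas2 lay below the lower quartile of 0.188. A CV under 0.25 was found for 7 markers: Vwf and Tek at loci of 1 symbol, and Pdgfra, Nefl, S100b, Mbp and Alas2 at shared loci.

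Of the 15 detected markers, 7 had a variance above the authors' fitted variance for their level, against 26.1% of detected loci. Kdr had the largest log2 ratio of variance to fitted variance among them, 3.95, followed by Vim at 2.07, Acta2 at 1.75 and Tnnt3 at 1.61. Vwf, Tek and Pecam1 lay below it, at −0.52, −0.56 and −0.60. Levels of keratinocyte genes, which mark the stratified epithelium around the buds, also varied, with a median CV of 0.987, whereas the median for taste bud genes was 0.128. Whether vessel or fibroblast RNA and keratinocyte RNA rose in the same libraries was not tested, because the table has no level per library.

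Where only a few fragments existed, the mean and the variance together fixed how many whole fragments lay in which library. A fragment adds a different amount to the mean in each library, through its size factor, the number by which the library's counts were divided. These factors ran from 0.732 to 1.80, and the variance showed sets of 8, 7 and 6 libraries, which disagree with the 7 libraries per group of the labels. For 6 markers 1 arrangement was kept. For Col1a1, Myl1 and Hba-a1 only that arrangement of at most 7 fragments gave both values. The relative tolerances were 2e-05 for the mean and 6e-05 for the variance. Cdh5, Emcn and Plin1 had the variance of a locus seen in 1 library, within a relative tolerance of 0.0001. For them, spreads over several libraries were not tried. Libraries are named here by their size factor, since which library belongs to which condition was not recoverable.

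Cdh5 had 1 compatible fragment in all 21 libraries, in the library of size factor 1.18. Emcn likewise had 1, in the library of 1.027. Col1a1 had 4 fragments in 3 libraries of the set of 8, with 2 in the library of 1.027 and 1 each in those of 1.80 and 0.790. Myl1 had 4 fragments, 3 of them in the library of 0.970 and 1 in that of 1.008. Plin1 had 3 compatible fragments, all in that same library of 0.970, whereas its 7 total fragments lay in 4 libraries.

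Hba-a1 had 3 fragments, 2 in the library of 1.18 and 1 in that of 0.881. Its near-identical copy Hba-a2 also had 3, in those same 2 libraries, with 1 in that of 1.18 and 2 in that of 0.881. The beta globins Hbb-bs and Hbb-bt had 2 and 1 compatible fragments, all in the library of 0.829, where the alpha globins had none. By total fragments Hbb-bt had 6 in 4 libraries. The 16 fragments of the 6 markers lay in 7 libraries. Among other listed genes, Pvalb had its only compatible fragment in the library of 1.008 and Pdgfrb in that of 0.881. By total fragments Pdgfrb had 7 in 4 libraries, and Pvalb averaged 3.39 per library.

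**Figure D3:**
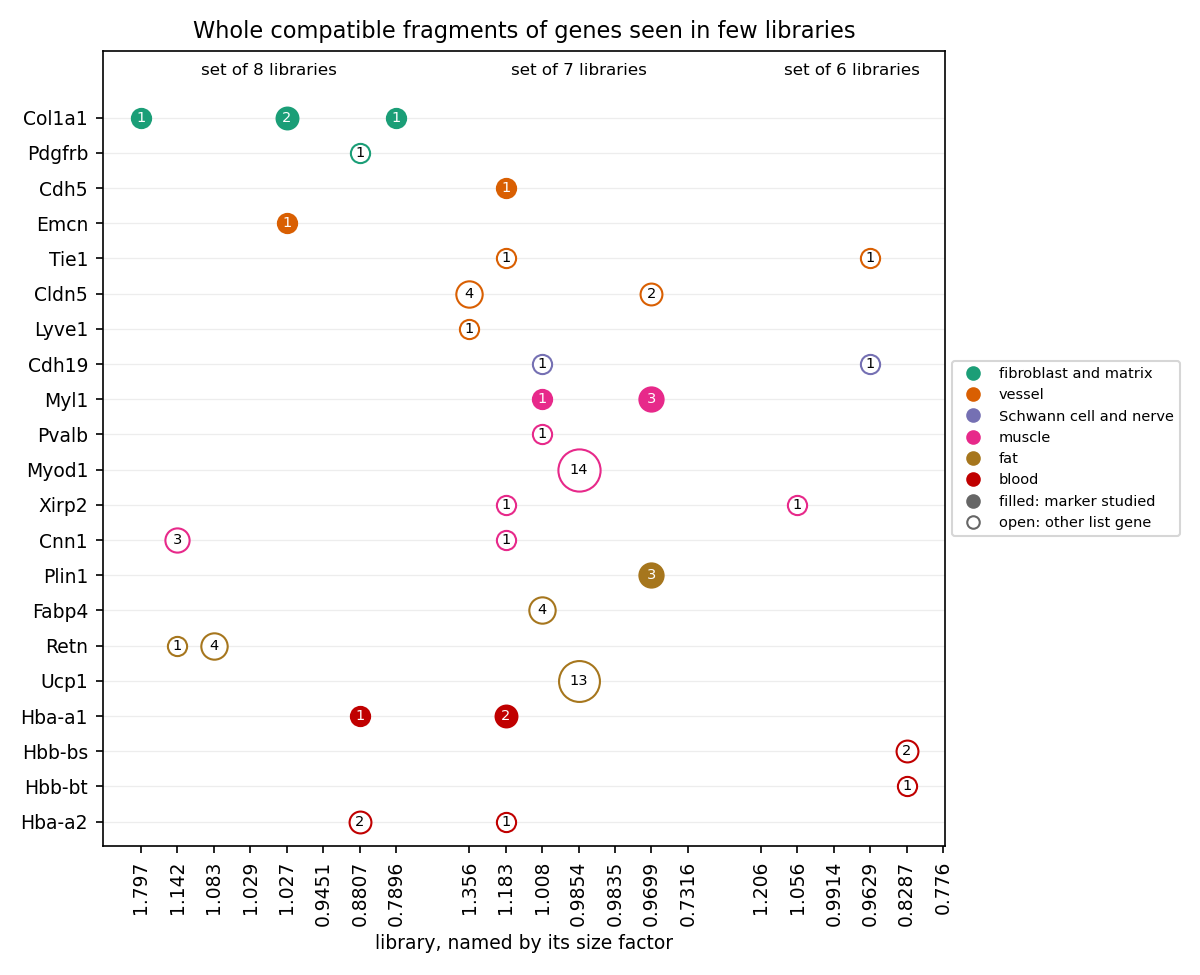
Whole compatible fragments (numbers in the circles, circle area growing with the number) of genes for which 1 arrangement was kept, by library. Libraries are grouped by set and named by size factor, filled circles are the markers and open circles other genes of the same lists. Markers have at most 3 fragments in any library, and Hba-a1 and Hba-a2 occupy the same 2 libraries.

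Per kb of exon, all markers at loci of 1 symbol lay below the taste bud genes, while a few lay within the range of the keratinocyte genes. Dcn had the highest level with 175 compatible fragments per kb, followed by Tek with 172, Vwf with 93.7, Vim with 28.5 and Acta2 with 10.3. Col1a2 had 0.437 and Col1a1 0.0274 fragments per kb. The median over these 21 markers was 0.755, against 9790 for 9 taste bud genes, 1351 for 12 keratinocyte genes and 0.568 for 11 leukocyte genes. The lowest of the taste bud genes, at 429 fragments per kb, lay above the highest marker. The keratinocyte genes began at 38.6 fragments per kb, below Dcn, Tek and Vwf. Epcam, an adhesion molecule of epithelia, led the taste bud genes with 40934 fragments in all, Krt6a the keratinocyte genes with 41906 and Lyz2 the leukocyte genes with 33435. Length scaling assumes even coverage along transcripts, which was not checked for this oligo(dT)-primed material.

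**Figure D4:**
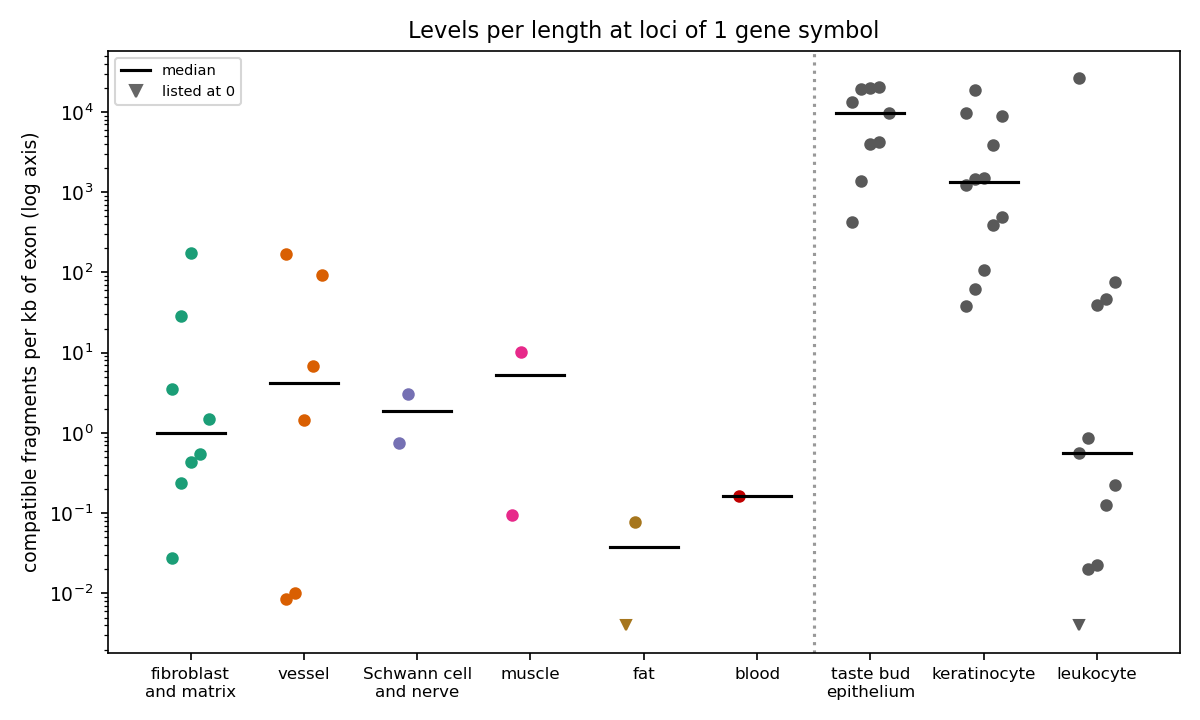
Compatible fragments per kb of exon (log axis) at loci of 1 gene symbol, for the markers of each tissue left of the dotted line and for 3 comparison lists right of it; bars are medians and triangles are genes listed at 0. No marker exceeds 175 fragments per kb, the taste bud genes start at 429 and the keratinocyte genes at 38.6.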

How the data were processed

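RNA-seq of 21 libraries was analysed from the authors' deposited table and merged annotation. Per the submitters' processing notes, the tools were TopHat, Bowtie2, Cufflinks, Cuffdiff, Trimmomatic and FastQC, on GRCm38.p4, with roles and versions unstated. Per the file headers, the deposited values are a signal: the mean over libraries of fragments scaled by size factors, its variance and a fitted variance. No source used here gives the strand setting of the counting.

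A marker's locus was the one holding its exons, and each marker had 1. CV, leading share (variance over squared mean, divided by 21), fragments per kb of merged exon and whole-fragment arrangements were computed in Python 3.11.15 using pandas 2.3.3 and numpy 2.4.6, with figures by matplotlib 3.10.9. A library seen alone at a locus was recognised within a relative tolerance of 0.0001, and 1 size factor came from 28 loci with fragments in a pair of libraries. Simulated data tested the recovery of size factors, the bound on the leading share and the arrangements of at most 7 fragments. Placing a gene seen in 1 library, the CV and the length scaling were not tested on them. Simulated variances were made with the formula used here, so they cannot show that the deposited variances follow it. No test was run, because the table used gives no level per group, and fragments per library could be recovered only for genes with few of them.

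Members and lists were chosen with earlier results of these data known. All members are named, and of other listed genes the 3 highest at loci of 1 symbol and the lowest, or for comparison lists the highest; the levels of some blood genes that this rule names are not reported here. Hbb-bs and Hbb-bt were named after their values were seen. Alternatives were other detection levels, total fragments, loci of 1 symbol, length scaling and a tighter bound. GENCODE M21 gave biotypes and overlapping genes, and 21 of the 33 markers had a RefSeq promoter.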

Additional observations from a re-analysis of the deposited data

How the results depend on the processing

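Detected markers numbered 15. They were 23 at a mean of at least 1 fragment, 9 at 50 and 20 by total fragments, each of 31 markers. At loci of 1 symbol they were 8 of 21 markers. The share of all loci of 1 symbol that were detected was not computed. At 1 fragment, fibroblast markers numbered 8, nerve 5 and muscle 5. At 50, vessel markers numbered 2 and muscle 0. At loci of 1 symbol, detected nerve markers numbered 0 of 2, muscle 1 of 2 and blood 0 of 1. Median levels by total fragments were 12.4 for fibroblast, against 5.32 by compatible fragments, 145 for vessel, 15.1 for muscle, 0.446 for fat and 261 for blood. At loci of 1 symbol they were 3.87 for nerve, 9.29 for muscle and 0.135 for blood. Per kb of exon they were 86.0 for nerve and 12.0 for blood over all marker loci, shared ones included. At loci of 1 symbol the medians per kb were 1.90 for nerve and 0.166 for blood. Median CVs by total fragments were 1.13 for fibroblast, 0.415 for vessel and 1.94 for fat. By compatible fragments they were 2.37, 2.31 and 4.24, the last from Plin1 alone. At loci of 1 symbol they were 1.65 for nerve, 2.43 for muscle and 3.07 for blood. Median leading shares by total fragments were 6.04% for fibroblast, 0.853% for vessel and 18.5% for fat. By compatible fragments they were 26.8%, 39.7% and 85.7%, the last again from Plin1 alone. At loci of 1 symbol they were 13.2% for nerve, 30.9% for muscle and 44.8% for blood. Adding 1/21 to the share gave 4.98% for nerve, against 0.220% without it, a change made by the addition itself. The cause of the other changes was not tested. Medians of nerve and blood thus rest on shared loci, and levels under about 1 fragment rest on a few fragments. No paired analysis was possible because the table holds no value per library.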

Other observations

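Myod1, a transcription factor of muscle precursors, and Ucp1, the uncoupling protein of brown fat, were chosen after their values were seen. Myod1 had 14 compatible fragments, all in the library of size factor 0.985, and Ucp1 had 13, all in that same library. Their totals were 3.67 and 10.5 fragments per library. Cldn5, a claudin of vessel walls, had 6 compatible fragments, 4 in the library of 1.36 and 2 in that of 0.970. That library also held all 3 compatible fragments of Plin1 and 3 of the 4 of Myl1. By total fragments Cldn5 averaged 7.57 per library and Myl1 1.63, and Plin1 had 7 in 4 libraries.

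New isoforms of the marker itself stood in the merged annotation at 14 of the 31 markers. Over all loci the share with a new isoform of any gene rose with level. It was 11.9% above 0 and under 1 compatible fragment, 19.5% between 1 and 10 and 30.2% between 10 and 100. Between 100 and 1000 it was 46.2%, and at 1000 or more 55.5%. The marker count and these shares thus differ in what they count. Col1a1 has 1 of 13 exons although 4 compatible fragments were counted there in all, and Myl1 has 2, of up to 8 exons, with 4 fragments. Of 2114 loci above 0 and under 0.2 compatible fragments, 215 hold a new isoform, or 10.2%.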
